A study of Mus musculus with 12 samples.

Results

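The collagen genes were followed through the colonic epithelium of mice with an intestinal knockout of Ehf, an ETS-family transcription factor gene of epithelial cells. The members were all gene symbols made of Col, a number, the letter a and a number. The pattern matched 44 of 55304 symbols in the count files. The study compared 3 groups of 4 C57BL/6 mice, all aged 6 weeks, by sequencing of total RNA. Control-OIL held mice labelled wild-type that received sunflower oil and whose source names begin with EVCER. Control-TMX held mice of the VilCreER line, labelled wild-type and given tamoxifen. This line carries a tamoxifen-activated Cre recombinase driven by the Villin promoter of intestinal epithelium. EHF IKO held tamoxifen-treated mice with the EVCER prefix, labelled as intestinal knockouts of Ehf. EHF IKO therefore differed from Control-OIL in tamoxifen as well as genotype, and Control-TMX differed from Control-OIL in line as well as tamoxifen. Between EHF IKO and Control-TMX, both given tamoxifen, the line differed as well as the genotype. The parts played by these cannot be told apart. Epithelium was released from the opened colon by shaking in EDTA and vortexing, and the smooth muscle was removed.

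Collagens are proteins of 3 chains wound into a triple helix. Fibrillar types (I, III, V) make the tensile fibres of the lamina propria, and FACIT types (fibril-associated collagens with interrupted triple helices) lie on the surface of those fibres. Type IV forms the sheet of basement membranes, type VI forms beaded filaments, and multiplexins (XV, XVIII) sit at the border between basement membrane and stroma. Type VIII is a short-chain collagen known for the networks it forms around blood vessels and in the cornea. In the colon most collagen is made by fibroblasts and other mesenchymal cells below the epithelium, while types VII and XVII anchor epithelial cells to the matrix.

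Libraries held 7421411 to 10344161 counts, and 35 of the 44 collagens passed the filter on low counts and were tested together with the other genes (15743 in all). Xist was counted 10376 to 18666 times in replicates 1 and 2 of every group and 16 to 30 times in replicates 3 and 4. EHF IKO 2 stood apart, with counts in 36109 genes against 23588 to 25966 in the other libraries, and the results that rest on it are given with and without it. Ehf itself was at 428 ± 46.4, 345 ± 21.0 and 341 ± 30.1 CPM (SD, n = 4 each) in Control-OIL, Control-TMX and EHF IKO. These are counts over the whole gene, so they do not check the deletion. Epithelial marker genes (10, with Epcam and Vil1 among them) summed to 7531 to 11254 CPM per library, and 20 stromal markers to 119 to 213 CPM. In such bulk samples fewer cells of a type and less RNA per cell cannot be told apart.

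Levels are given in CPM, that is as counts relative to the TMM-adjusted size of the library, and are compared between genes only per kilobase of annotated exon. Log2 fold changes are from the edgeR quasi-likelihood test with their standard errors. A gene was called when its p, adjusted by Benjamini-Hochberg over all 15743 genes, was under 0.05. Averaged over all 12 libraries, Col1a1 (25.5 CPM per kilobase) and Col3a1 (21.8) led the list, followed by Col6a1 (9.90) and Col1a2 (9.67). Below them came Col6a2 (4.86), Col16a1 (4.65), Col4a1 (3.81), Col5a1 (3.22), Col8a1 (2.94) and Col4a2 (2.90). Col1a1, Col3a1, Col6a1 and Col1a2 together held 53.2% of the collagen counts in Control-OIL 4, the lowest share, and 72.0% in EHF IKO 4, the highest.

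**Figure D1:**
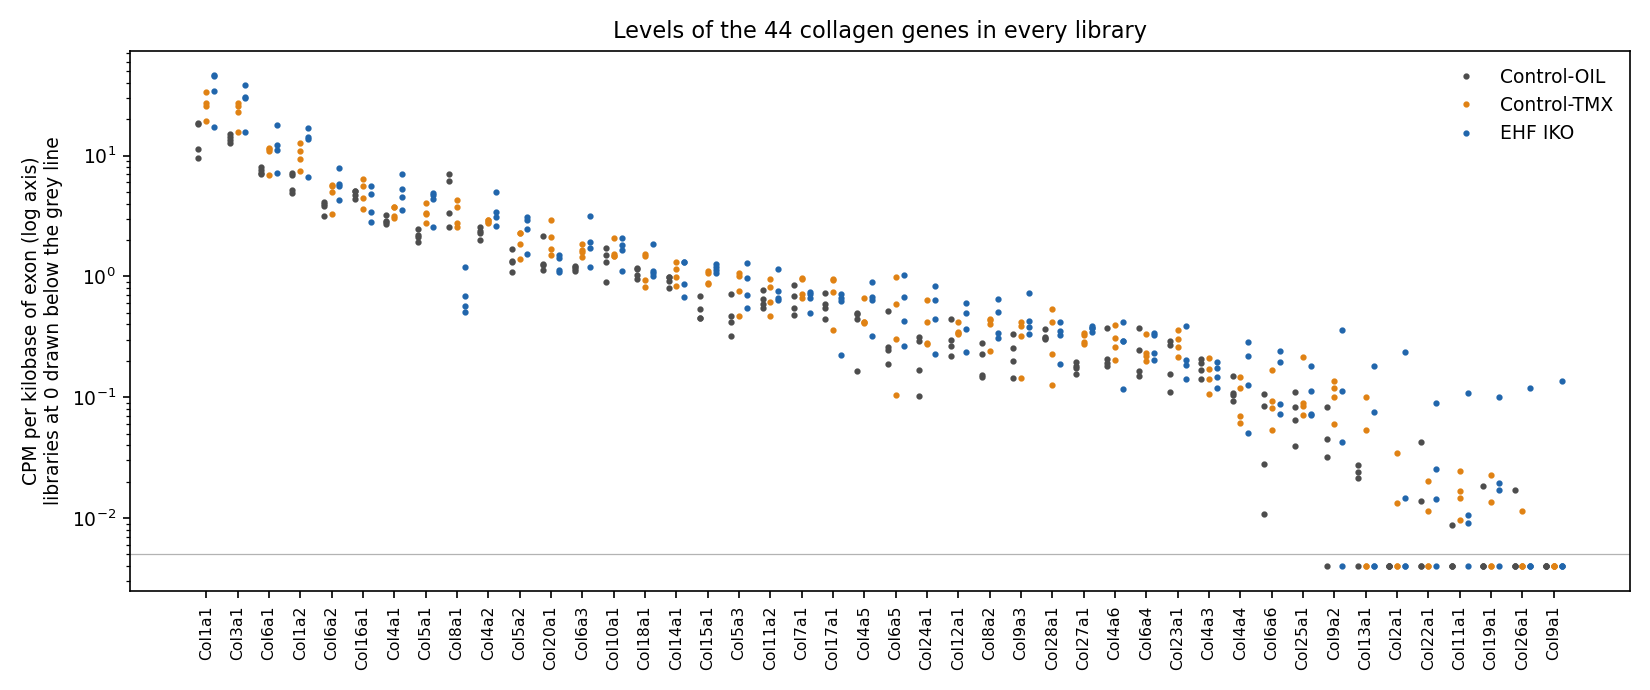
Level of each of the 44 collagen genes in every library, in CPM per kilobase of exon on a log axis, with genes in order of their mean over 12 libraries and 1 point per mouse. Libraries with no count are drawn below the grey line. In Col8a1 the 4 EHF IKO points lie below all control points, and in each of the 8 genes at the right end the highest point is EHF IKO 2.

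All collagens summed to 524 to 662 CPM in Control-OIL, 686 to 1018 in Control-TMX and 640.5 to 1382 in EHF IKO. The means were 597 ± 65.7, 879 ± 140.5 and 1059 ± 308 CPM (SD, n = 4 each). The lowest EHF IKO library was EHF IKO 2, and the other 3 EHF IKO libraries lay at 1080 to 1382 CPM, above all 8 controls. Every Control-TMX library was above every Control-OIL library.

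Against Control-OIL, 7 collagens rose in EHF IKO and 1, Col8a1, fell. Of all genes tested, 1.68% were called in that comparison, 0.921% as rises and 0.762% as falls. Among the 35 collagens tested, 29 had a positive and 6 a negative log2 fold change, with a median of 0.62 against a median of -0.01 over all genes. Against Control-TMX only Col8a1 was called among the collagens, as a fall, where 0.8% of all genes were called (0.33% rose and 0.47% fell). In that comparison 25 collagens were higher and 10 lower, and the median was 0.24 against 0.02 over all genes. At an unadjusted p under 0.05 (edgeR), 1 collagen was higher and 2 lower, where 882 and 987 of all 15743 genes were. Against the mean of both controls, Col4a1, Col15a1 and Col27a1 rose and Col8a1 fell (1.72% of all genes were called, 0.858% in each direction). The comparisons share control or EHF IKO libraries, so their counts are not independent of each other.

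**Figure D2:**
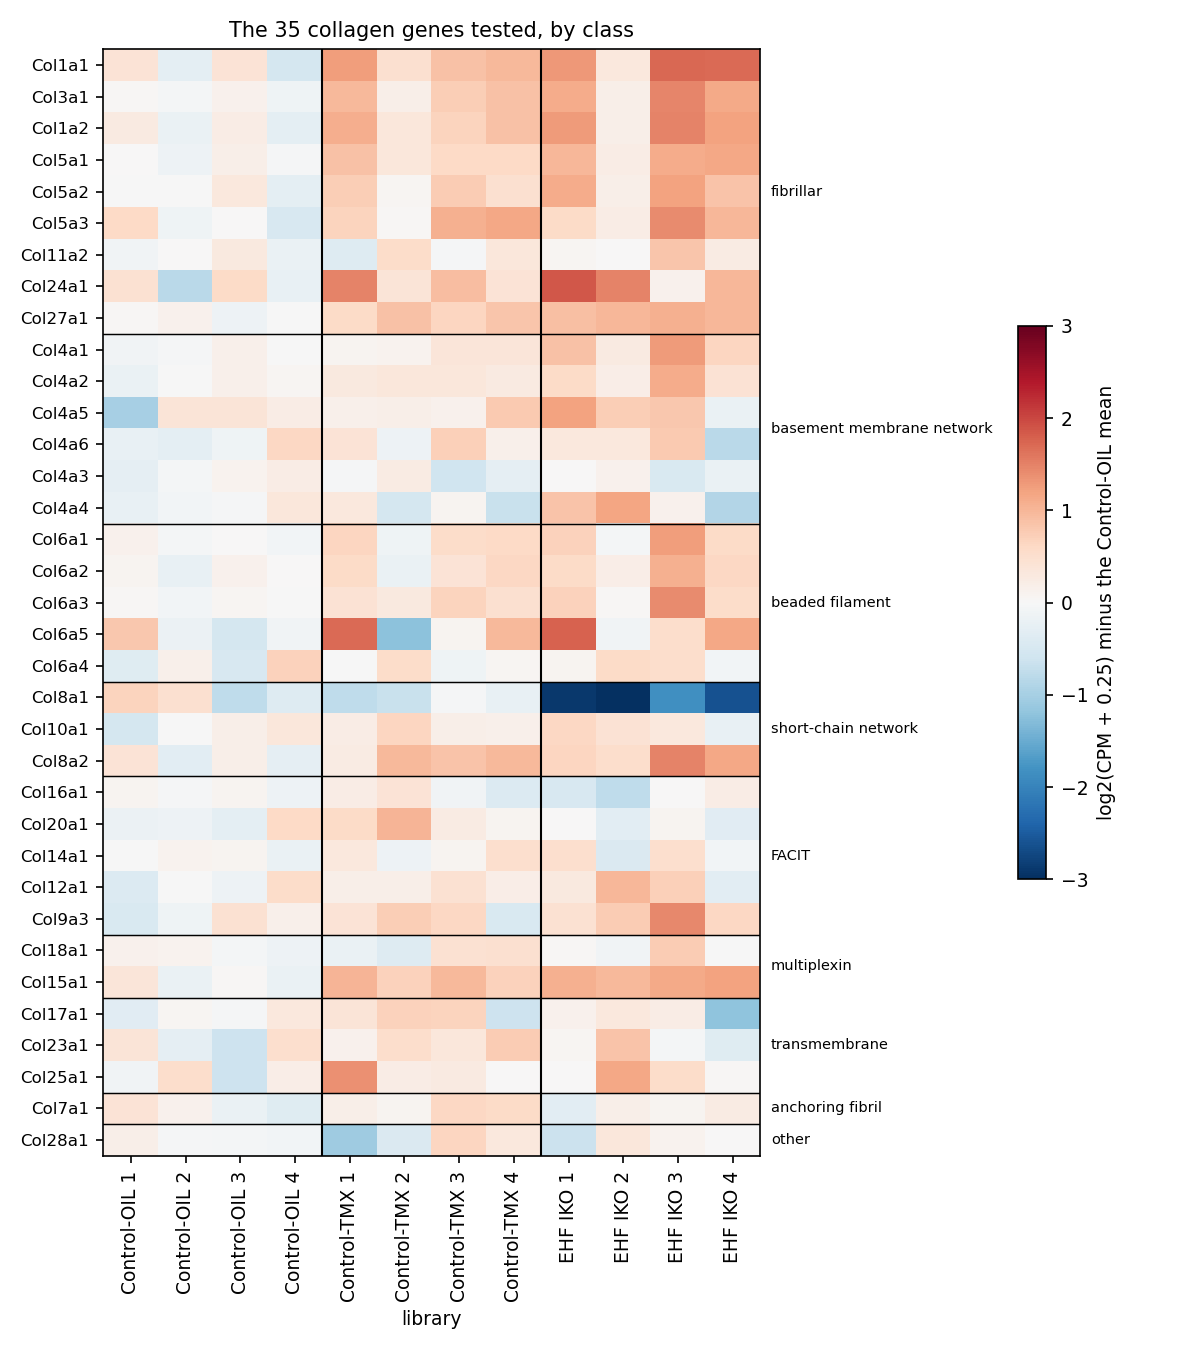
Heat map of the 35 tested collagens (rows, by class) in the 12 libraries (columns), as log2(CPM + 0.25) minus the Control-OIL mean, with colours from -3 to 3. The Col8a1 row is blue in all 4 EHF IKO libraries, while most fibrillar rows are red in Control-TMX and EHF IKO and pale in EHF IKO 2.

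Col8a1 (ENSMUSG00000068196, chromosome 16, 57624258 to 57754737, minus strand, GRCm38) encodes the alpha-1 chain of type VIII collagen. The gene overlaps no other annotated gene and held 2360 counts over the 12 libraries. Col8a1 stood at 54.9, 47.9, 20.00 and 26.1 CPM in Control-OIL 1 to 4, at 20.0, 21.6, 33.6 and 29.5 CPM in Control-TMX 1 to 4, and at 4.43, 4.00, 9.31 and 5.37 CPM in EHF IKO 1 to 4. The 4 EHF IKO libraries lay below all 8 controls, and Col8a1 was the only collagen with that pattern. Over all genes tested, 1.23% lay below all controls, 3.29% below all of Control-OIL and 3.87% below all of Control-TMX. It follows, and is no separate result, that EHF IKO lay below the controls within the Xist-high and within the Xist-low libraries. Group means were 37.2 ± 16.8, 26.2 ± 6.43 and 5.78 ± 2.42 CPM (SD, n = 4 each). The Control-OIL spread came from replicates 1 and 2, the Xist-high libraries, which were above replicates 3 and 4, whereas in Control-TMX replicates 1 and 2 were the lower ones.

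Col8a1 fell by 2.68 ± 0.36 on the log2 scale against Control-OIL, to 0.156 times its level (edgeR, adjusted p = 0.00337 and at most 0.0413 over all alternatives). Against Control-TMX it fell by 2.19 ± 0.36, to 0.220 times (adjusted p = 0.0124, with 2.7e-08 to 0.0625 over the alternatives), and against the mean of both by 2.43 ± 0.33 (adjusted p = 0.00255). The call against Control-TMX was lost without EHF IKO 1 (adjusted p = 0.0568), EHF IKO 2 (0.0560) or EHF IKO 4 (0.0552), each of which leaves 3 mice. With the Xist class as a covariate, chosen after seeing the data, adjusted p was 0.0230. Without EHF IKO 2 the fall was 2.55 against Control-OIL (adjusted p = 0.0158) and 2.05 against Control-TMX. Between the 2 controls Col8a1 differed by -0.50 ± 0.32 (Control-TMX against Control-OIL, adjusted p = 0.538).

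The promoter of Col8a1 is shown because this was the only collagen called lower in EHF IKO. It is given as the 250 bases before the RefSeq start (GRCm38.p6), with matches to GGAA, the core of ETS-factor motifs, in capitals (read as GGAA or, on the other strand, TTCC). The window of Col15a1, a member that rose, is set beside it. The Col8a1 window is chr16:57754738-57754987 on the minus strand, and that of Col15a1 is chr4:47207762-47208011 on the plus strand, which ends 149 bases before the transcription start of the counted annotation.
Col8a1: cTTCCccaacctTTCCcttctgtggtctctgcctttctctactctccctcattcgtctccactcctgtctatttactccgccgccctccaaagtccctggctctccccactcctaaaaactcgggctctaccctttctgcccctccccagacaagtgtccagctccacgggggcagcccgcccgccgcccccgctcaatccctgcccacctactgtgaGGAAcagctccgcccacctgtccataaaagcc
Col15a1: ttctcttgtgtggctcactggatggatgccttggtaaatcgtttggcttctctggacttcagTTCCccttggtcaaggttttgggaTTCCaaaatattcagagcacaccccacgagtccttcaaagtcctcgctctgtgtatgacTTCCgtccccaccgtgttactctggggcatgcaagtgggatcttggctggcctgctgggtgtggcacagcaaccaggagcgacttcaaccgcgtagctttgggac
Both windows hold 3 matches. GGAA on either strand occurs in 93.4% of 32851 RefSeq windows of this length, with a median of 3 per window, and in all 35 collagen windows, with a median of 2. These are the 35 of 44 collagens that have a window, Col1a1 not among them, and not the same genes as the 35 tested. The number of matches thus did not set the Col8a1 window apart from that of Col15a1 or from the median gene. A match is a run of letters and does not show binding.

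The partner chain of type VIII, Col8a2 (chromosome 4), did not share the fall. Col8a2 was at 1.26, 0.664, 1.02 and 0.691 CPM in Control-OIL 1 to 4, at 1.09, 1.98, 1.80 and 1.96 in Control-TMX 1 to 4, and at 1.51, 1.38, 2.93 and 2.28 in EHF IKO 1 to 4. All EHF IKO libraries were above all Control-OIL libraries, yet the difference was not called (log2 fold change 1.17 ± 0.35, edgeR adjusted p = 0.121). Relative to Control-TMX it was 0.22 ± 0.32 (adjusted p = 0.852). Per kilobase of exon, Col8a1 exceeded Col8a2 by 11.2 to 41.4 times in Control-OIL, 6.27 to 10.7 times in Control-TMX and 1.35 to 1.82 times in EHF IKO. These ratios did not overlap between EHF IKO and either control. Against Control-OIL this follows from all EHF IKO libraries being lower for Col8a1 and higher for Col8a2, and is no separate result. Against Control-TMX it restates in part that all EHF IKO libraries were lower for Col8a1. The ratios rest on 6 to 22 Col8a2 counts per library. Col10a1, the other short-chain network gene and best known from growth-plate cartilage, was at 4.23 ± 1.08, 5.15 ± 0.937 and 5.22 ± 1.27 CPM (SD, n = 4 each), so its groups overlapped.

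**Figure D3:**
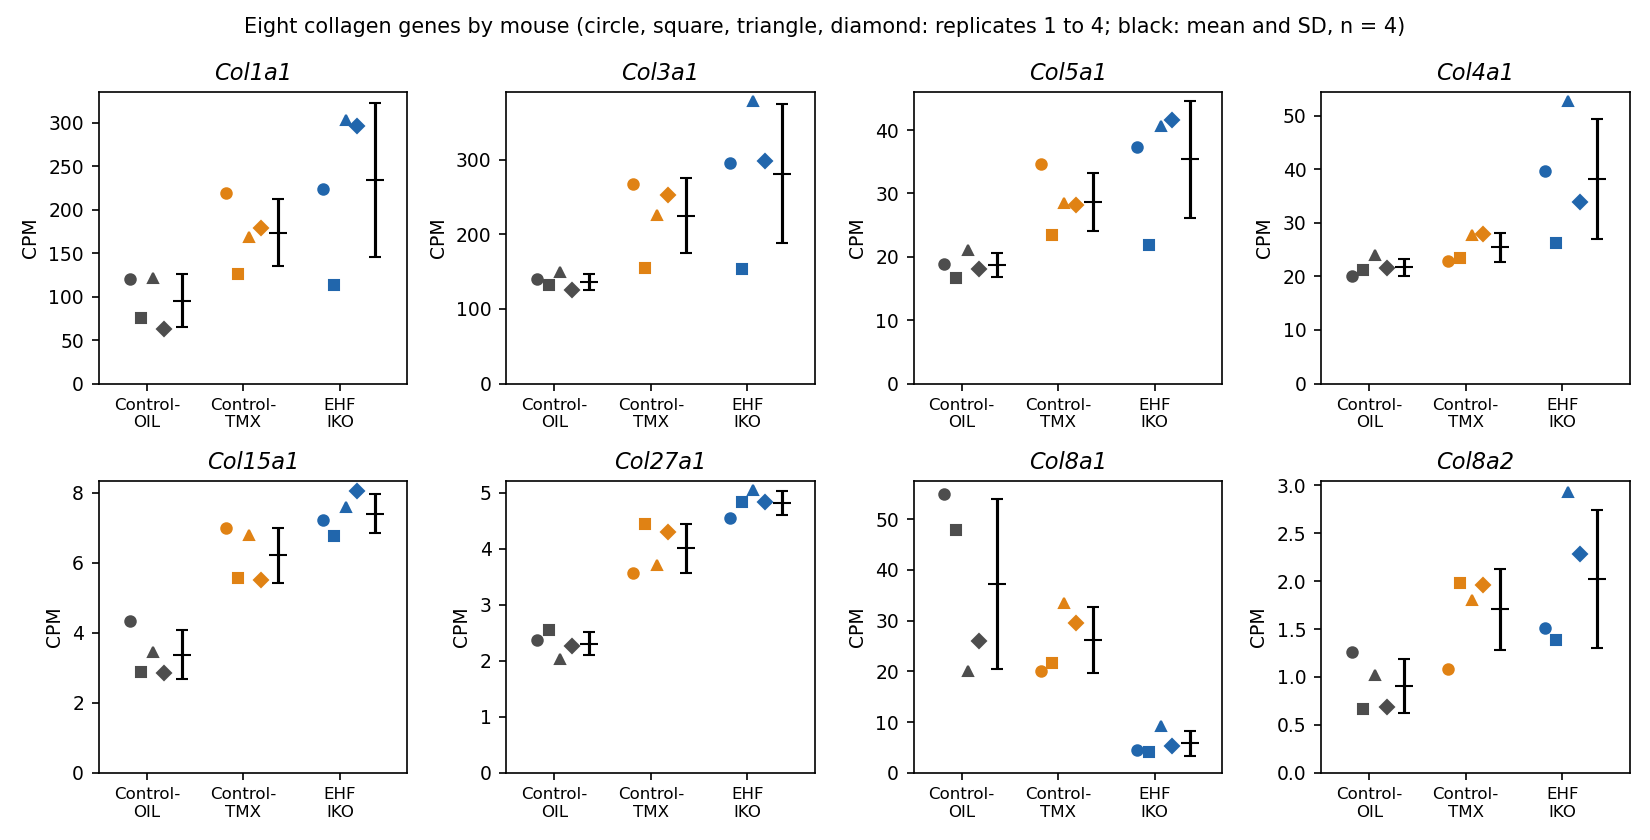
CPM of 8 collagens in each mouse, with the replicate number given by marker shape and the mean and SD (n = 4) in black. Col8a1 is low in all EHF IKO mice, Col15a1 and Col27a1 are tightly grouped above Control-OIL in both tamoxifen-treated groups, and the EHF IKO square (replicate 2) is the lowest EHF IKO point in 7 of 8 panels.

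Of the fibrillar collagens, the 9 tested all had positive log2 fold changes against Control-OIL, and 5 of them rose (Col3a1, Col1a2, Col5a1, Col5a2 and Col27a1), with a median of 1.05. All 9 were also positive in Control-TMX against Control-OIL (median 0.75, none called) and in EHF IKO against Control-TMX (median 0.32, none called). Col1a1 (chromosome 11, 94936224 to 94953042), the main chain of type I, was at 121, 74.9, 122 and 62.9 CPM in Control-OIL 1 to 4, at 220, 126, 168 and 179 in Control-TMX 1 to 4, and at 224, 113.3, 303 and 296 in EHF IKO 1 to 4. EHF IKO 2 lay inside the Control-OIL range, and the other 3 EHF IKO libraries were above all controls. Its log2 fold change of 1.30 ± 0.31 against Control-OIL missed the threshold (edgeR adjusted p = 0.0587), as did that of 0.43 ± 0.30 relative to Control-TMX (adjusted p = 0.627).

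Col3a1 (chromosome 1, 45311538 to 45349706), the single chain of type III, ran from 125 to 149 CPM in Control-OIL, from 155 to 268 in Control-TMX and from 154 to 378 in EHF IKO. It rose by 1.05 ± 0.22 against Control-OIL (edgeR adjusted p = 0.0318). Col1a2, the second chain of type I, averaged 74.7 ± 14.6, 126 ± 27.5 and 160.0 ± 53.9 CPM in Control-OIL, Control-TMX and EHF IKO and rose by 1.10 ± 0.25 (adjusted p = 0.0445). The ratio of Col1a1 to Col1a2 per kilobase was 2.36 ± 0.326, 2.61 ± 0.0945 and 2.75 ± 0.388 in the 3 groups (SD, n = 4 each), with overlapping ranges.

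Type V chains start and limit the growth of type I fibrils. Col5a1 was at 18.9, 16.6, 21.1 and 18.1 CPM in Control-OIL 1 to 4, at 34.6, 23.5, 28.5 and 28.1 in Control-TMX 1 to 4, and at 37.4, 21.8, 40.7 and 41.6 in EHF IKO 1 to 4. It rose by 0.92 ± 0.18 against Control-OIL, with no overlap between these groups (edgeR adjusted p = 0.0173). Col5a2, its partner chain, averaged 13.0 ± 2.30, 18.8 ± 4.01 and 24.1 ± 6.82 CPM and rose by 0.89 ± 0.21 (adjusted p = 0.0487). Col3a1 and Col5a2 are neighbours on chromosome 1, 24614 bases apart on opposite strands.

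The calls of Col3a1, Col1a2, Col5a2 and Col5a1 depended on single libraries. Without Control-OIL 4, EHF IKO 1 or EHF IKO 3, adjusted p against Control-OIL was 0.0532, 0.0577 and 0.0684 for Col5a1, 0.101, 0.0931 and 0.0977 for Col3a1, 0.134, 0.133 and 0.136 for Col1a2, and 0.145, 0.159 and 0.170 for Col5a2. The last 3 genes were called in 4, 3 and 3 of the 12 fits that left out 1 library. Without EHF IKO 2 the values went the other way: Col1a1 was called too, and 11 collagens in all rose against Control-OIL, where 7 did with it. Over all genes, 70 of 16008 were called higher without EHF IKO 2 and 145 of 15743 with it.

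Col27a1 (chromosome 4, 63214004 to 63334991), a fibrillar gene of a long exonic sequence (13022 bases) known for its part in cartilage, was low but steady between mice. It was at 2.38, 2.55, 2.04 and 2.27 CPM in Control-OIL 1 to 4, at 3.57, 4.45, 3.71 and 4.30 in Control-TMX 1 to 4, and at 4.54, 4.83, 5.06 and 4.84 in EHF IKO 1 to 4. It was the only collagen whose EHF IKO libraries all lay above all 8 controls, as 1.17% of all tested genes did (3.32% lay above all of Control-TMX). Col27a1 rose by 1.05 ± 0.19 against Control-OIL (edgeR adjusted p = 0.0109), a call kept whichever library was left out (at most 0.0457). Against Control-TMX the log2 fold change was 0.26 ± 0.18 (adjusted p = 0.621). The call against the mean of both controls (0.66 ± 0.16, adjusted p = 0.0481) was lost whichever library was left out, with adjusted p of 0.0600 to 0.155.

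**Figure D4:**
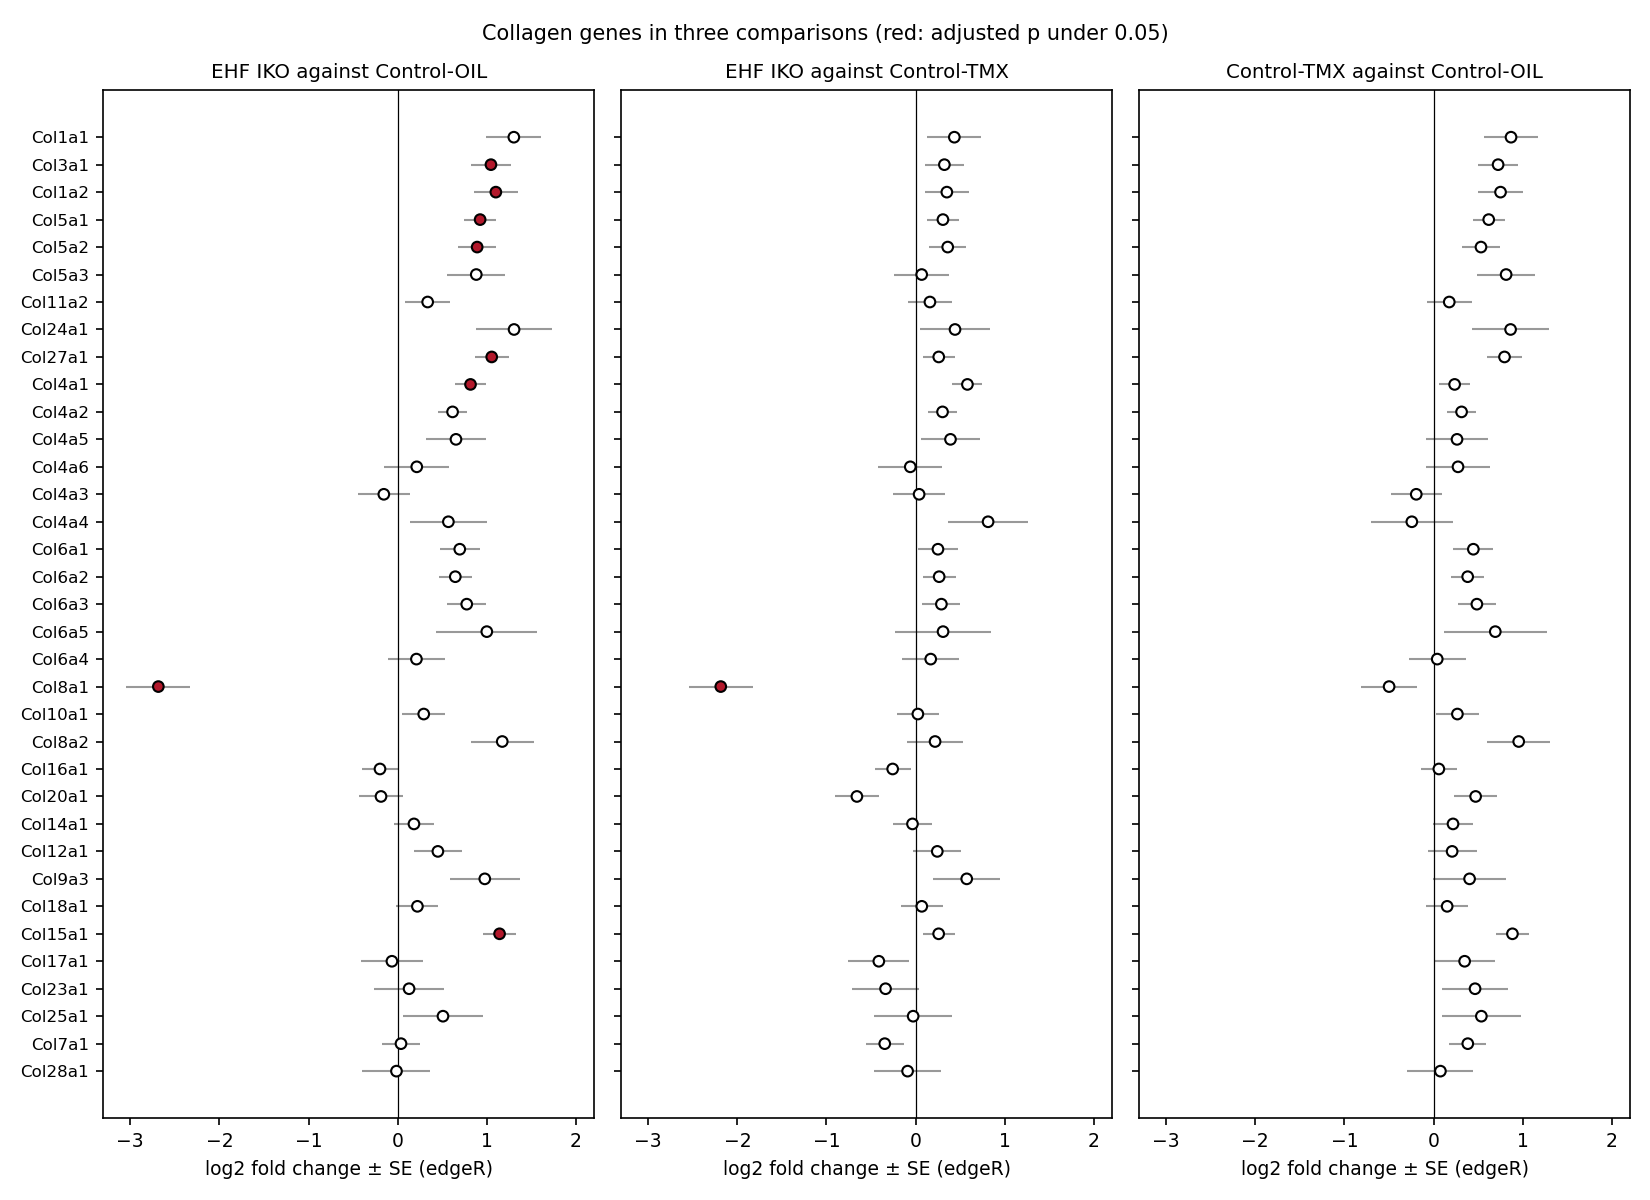
Log2 fold changes ± SE of the 35 tested collagens in 3 comparisons, with called genes (adjusted p under 0.05) filled in red. Col8a1 is the only gene called in the comparison with Control-TMX, and the 7 called rises stand in the comparison with Control-OIL alone.

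Multiplexins carry the sugar chains of proteoglycans, and the fragment endostatin comes from type XVIII. Col15a1 (chromosome 4, 47208161 to 47313167) was at 4.33, 2.88, 3.44 and 2.86 CPM in Control-OIL 1 to 4, at 6.99, 5.56, 6.78 and 5.52 in Control-TMX 1 to 4, and at 7.22, 6.76, 7.58 and 8.06 in EHF IKO 1 to 4. Both tamoxifen-treated groups lay above Control-OIL with no overlap, and they overlapped each other. It rose by 1.14 ± 0.19 against Control-OIL (edgeR adjusted p = 0.00692), whichever library was left out (at most 0.0276), while Control-TMX against Control-OIL gave 0.88 ± 0.19 (adjusted p = 0.114). The call against the mean of both controls (0.70 ± 0.15, adjusted p = 0.0320) held in 2 of the 12 fits that left out a library, and without EHF IKO 3 adjusted p was 0.111. Col18a1 averaged 7.57 ± 0.716, 8.31 ± 2.57 and 8.82 ± 2.74 CPM (SD, n = 4 each), with overlapping groups.

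Among the type IV chains of basement membrane, 1 of 6 rose against Control-OIL. Col4a1 (chromosome 8, 11198423 to 11312826, minus strand), with Col4a2 a chain of the sheet found in nearly all basement membranes, was at 20.1, 21.1, 23.9 and 21.5 CPM in Control-OIL 1 to 4, at 22.8, 23.5, 27.8 and 27.9 in Control-TMX 1 to 4, and at 39.7, 26.2, 52.8 and 34.0 in EHF IKO 1 to 4. EHF IKO 1, 3 and 4 were above all controls and EHF IKO 2 fell within the Control-TMX range. Col4a1 rose by 0.82 ± 0.17 against Control-OIL (edgeR adjusted p = 0.0244) and by 0.70 ± 0.14 against the mean of both (adjusted p = 0.0199), and was not called against Control-TMX (0.58 ± 0.17, adjusted p = 0.150). Without EHF IKO 2 it was called against Control-TMX as well, and without EHF IKO 1 or EHF IKO 3 it was called in none of the 3 comparisons (adjusted p = 0.0759 and 0.103 against the mean of both). Leaving out Control-OIL 1, 2 or 4 also ended the call against Control-OIL (adjusted p = 0.0623, 0.0543 and 0.0646).

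Col4a2 starts head to head with Col4a1 and overlaps it by 22 bases. It averaged 15.3 ± 1.54, 19.0 ± 0.480 and 23.4 ± 6.75 CPM and had a log2 fold change of 0.62 ± 0.17 against Control-OIL (edgeR adjusted p = 0.0783). Its 4 EHF IKO libraries were above its 4 Control-OIL libraries. The ratio of Col4a1 to Col4a2 per kilobase was 1.26 ± 0.0577, 1.19 ± 0.136 and 1.44 ± 0.0892 (SD, n = 4 each), and its ranges overlapped between the groups. The remaining chains, Col4a3 to Col4a6, were at means of 1.06 to 4.25 CPM and none was called.

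The 5 tested type VI genes were all higher in EHF IKO than in Control-OIL and none was called. Col6a1 was at 35.5, 31.3, 33.1 and 30.8 CPM in Control-OIL 1 to 4, at 50.9, 30.0, 47.8 and 49.2 in Control-TMX 1 to 4, and at 53.1, 31.2, 78.2 and 49.0 in EHF IKO 1 to 4. Control-TMX 2 and EHF IKO 2 sat at the Control-OIL level. Log2 fold changes against Control-OIL were 0.70 ± 0.22 for Col6a1, 0.65 ± 0.19 for Col6a2 and 0.77 ± 0.22 for Col6a3 (edgeR adjusted p = 0.172, 0.107 and 0.0925). Against Control-TMX they were 0.25 ± 0.22, 0.26 ± 0.18 and 0.29 ± 0.21, and without EHF IKO 3 those of Col6a1 and Col6a3 turned to values of no more than 0.02 below 0. The 3 chains build 1 protein, and the ratio of Col6a1 to Col6a2 per kilobase was 1.99 ± 0.187, 2.08 ± 0.101 and 2.00 ± 0.277.

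No FACIT collagen was called in any comparison, with 3 of 5 higher and 2 lower against Control-OIL. Col16a1, the most abundant of them per length, was at 34.2, 31.5, 34.3 and 29.2 CPM in Control-OIL 1 to 4, at 37.6, 43.1, 29.9 and 24.4 in Control-TMX 1 to 4, and at 23.1, 19.0, 32.7 and 37.7 in EHF IKO 1 to 4. Its groups overlapped, and its log2 fold changes were -0.20 ± 0.20 against Control-OIL and -0.26 ± 0.20 against Control-TMX (edgeR adjusted p = 0.808 and 0.670). Col20a1 averaged 7.49 ± 2.46, 10.5 ± 3.23 and 6.62 ± 1.06 CPM, and its -0.66 ± 0.25 against Control-TMX (adjusted p = 0.296) was, beside Col8a1, the other lower collagen with an unadjusted p under 0.05.

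The collagens known for anchoring epithelial cells were not called, and their groups overlapped. Col7a1, which forms anchoring fibrils, averaged 6.57 ± 1.66, 8.47 ± 1.66 and 6.72 ± 1.12 CPM in Control-OIL, Control-TMX and EHF IKO. Col17a1, a transmembrane collagen of hemidesmosomes, averaged 3.46 ± 0.697, 4.49 ± 1.65 and 3.33 ± 1.35 CPM (SD, n = 4 each). Col28a1, the higher of the type XXVI and XXVIII genes, averaged 1.59 ± 0.151, 1.61 ± 0.913 and 1.59 ± 0.477 CPM.

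The 9 collagens that were not tested are Col2a1, Col6a6, Col9a1, Col9a2, Col11a1, Col13a1, Col19a1, Col22a1 and Col26a1. They held 216 counts over the 12 libraries, of which 76 fell in EHF IKO 2 and 7 to 29 in each other library. EHF IKO 2 was the only library with a count for all 44 collagens. Col2a1, the cartilage fibril collagen, had 16 counts there and at most 3 in any other library, and Col9a1 had 5 there and none in the other 11.

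Control-TMX set against Control-OIL gave no called collagen (0.0826% of all genes were called, 0.0381% as higher). Of the 35 tested, 32 were higher and 3 lower, with a median log2 fold change of 0.38 against -0.01 over all genes. At an unadjusted p under 0.05 (edgeR), 10 collagens were higher and 0 lower, where 1047 and 981 of all 15743 genes were. In 8 collagens (Col1a1, Col1a2, Col3a1, Col4a2, Col5a1, Col6a3, Col15a1 and Col27a1) every Control-TMX library exceeded every Control-OIL library, as in 3.68% of all genes. In EHF IKO against Control-OIL there were 9 (Col3a1, Col4a1, Col4a2, Col5a1, Col6a2, Col8a2, Col9a3, Col15a1 and Col27a1), against 3.25% of all genes. DESeq2 called 1 collagen, Col15a1, between the controls, where it called 121 genes higher and 75 lower over all genes. Side by side, the log2 fold changes of Control-TMX and of EHF IKO against Control-OIL were 0.72 and 1.05 for Col3a1, 0.75 and 1.10 for Col1a2, 0.62 and 0.92 for Col5a1, 0.24 and 0.82 for Col4a1, and -0.50 and -2.68 for Col8a1. The 2 comparisons share the Control-OIL libraries.

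Other stromal genes were read from 20 fibroblast and stromal markers without collagens, all counted in every library, of which 17 were tested. Against Control-OIL 16 were higher and 1 lower in EHF IKO (median log2 fold change 0.64), and 2 rose: Fbln2, a fibulin of the matrix, by 1.08 ± 0.23 (edgeR adjusted p = 0.0250), and Sparc, a collagen-binding matrix protein, by 0.90 ± 0.20 (adjusted p = 0.0312). Both calls were lost without EHF IKO 1 (adjusted p = 0.0994 and 0.103) or EHF IKO 3 (0.0831 and 0.121), and also without Control-OIL 1, 2 or 4 for Fbln2 (0.0600, 0.0610 and 0.0806) and Control-OIL 1, 2 or 3 for Sparc (0.0768, 0.0792 and 0.0766). Summed, the 20 markers ranged from 119 to 127 CPM in Control-OIL, from 128 to 173 in Control-TMX and from 126 to 213 in EHF IKO. Against Control-TMX none of the 17 was called, 12 were higher and 5 lower, and the median was 0.11. None was called against the mean of both controls, where 16 were higher and 1 lower. The 2 with the smallest p there were Fbln2 (log2 fold change 0.60) and Gpx3 (0.59). At an unadjusted p under 0.05 (edgeR), 8 of the 17 were higher and 1 lower against Control-OIL, and 0 and 1 against Control-TMX. Against the mean of both controls 5 were higher and 1 lower. Over all 15743 genes these numbers were 1078 and 798 against Control-OIL, 882 and 987 against Control-TMX, and 988 and 837 against the mean.

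A stromal score, the mean of these 17 genes on a centred log2 CPM scale, was -0.41, -0.25, -0.34 and -0.18 in Control-OIL 1 to 4, 0.10, -0.19, 0.25 and 0.24 in Control-TMX 1 to 4, and 0.39, 0.05, 0.59 and -0.24 in EHF IKO 1 to 4. Within groups, no gene had a called slope on this score (15743 tested). At an unadjusted p under 0.05, 9 of 35 collagens had a positive slope and none a negative one, against 2.1% of all genes with a positive slope. They were Col4a1, Col4a2, Col4a5, Col4a6, Col6a1, Col6a2, Col6a3, Col14a1 and Col18a1, among them Col6a1 to Col6a3 and 4 of 6 chains of type IV. None of these 9 had an unadjusted p under 0.05 when the smooth muscle score stood in for the stromal one. There the slope was 0.017 for Col4a1, -0.12 for Col6a1 and -0.62 for Col1a1 (unadjusted p = 0.917, 0.604 and 0.0240). In that fit 4 collagens had a positive and 1 a negative slope, against 11.8% and 10.6% of all genes. The slope of Col6a3 was 0.93 ± 0.32 log2 units per unit of score (unadjusted p = 0.0101, adjusted 0.998) and that of Col4a1 0.75 ± 0.25 (unadjusted p = 0.00941). For Col1a1 the slope was 0.14, for Col15a1 -0.10, for Col27a1 -0.06 and for Col8a1 0.75, none with an unadjusted p under 0.05.

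EHF IKO 4 combined a low stromal score (-0.24) with 296 CPM of Col1a1 and 298 of Col3a1. EHF IKO 2 combined a score of 0.05 with the lowest Col1a1, Col1a2, Col3a1, Col5a1 and Col5a2 levels of its group. Without EHF IKO 4, 12 collagens had a positive slope at an unadjusted p under 0.05, now including Col1a2, Col3a1, Col5a1, Col5a2 and Col5a3, against 1.57% of all genes in that fit. Without EHF IKO 3, Col4a5 and Col4a6 had a positive slope and Col16a1 a negative one (3.4% of all genes positive and 2.62% negative).

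**Figure D5:**
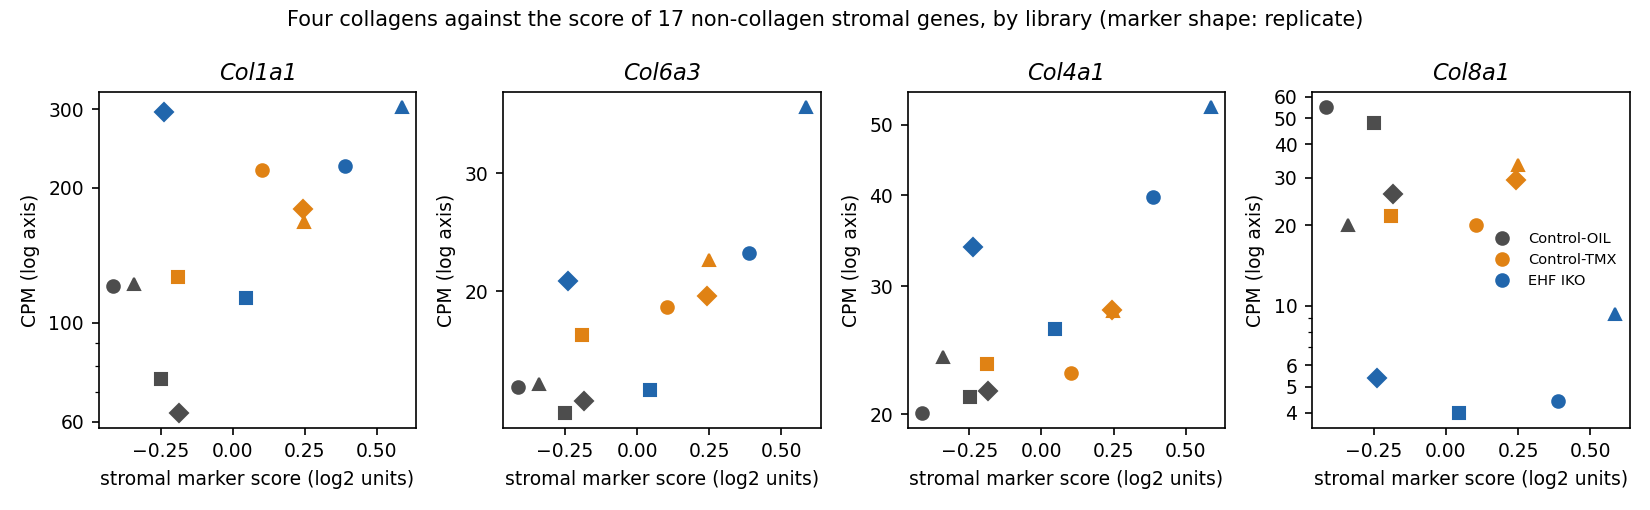
CPM of Col1a1, Col6a3, Col4a1 and Col8a1 (log axes) against the stromal marker score in the 12 libraries, coloured by group, with marker shape giving the replicate. Col6a3 and Col4a1 climb with the score, EHF IKO 4 (blue diamond) stands high for Col1a1 at a low score, and the blue Col8a1 points all lie below the controls, none of which has a score above 0.25.

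With the stromal score as a covariate none of the 7 rises against Control-OIL was called. Adjusted p (edgeR) was 0.0877 for Col15a1, 0.156 for Col27a1 and 0.336 to 0.846 for the others. Over all genes that fit called 14 higher and 17 lower against Control-OIL, where the fit without the score called 145 and 120. Col8a1 fell in it by 3.09 (adjusted p = 0.0413) and, against Control-TMX, by 2.27 (adjusted p = 0.0154). The log2 fold changes against Control-OIL in the fit with the score were 1.19 for Col15a1, 1.08 for Col27a1, 0.83 for Col1a2 and 0.82 for Col5a1. They were 0.70 for Col3a1, 0.54 for Col5a2 and 0.42 for Col4a1. With the smooth muscle score, Col1a1, Col5a1 and Col15a1 were called against Control-OIL, and in a fit of these 2 groups alone Col5a1, Col15a1 and Col27a1 were. Over all genes these fits called 61 of 15743 and 56 of 15129 higher. The score itself moved with the groups, with 3 of 4 EHF IKO libraries above all Control-OIL libraries.

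Apart from the stromal list, the markers of non-epithelial cells held no called gene in any comparison. The 12 smooth muscle and pericyte markers summed to 38.6 to 73.3 CPM in Control-OIL, 76.9 to 149 in Control-TMX and 55.75 to 122 in EHF IKO, with 11 tested and none called (median log2 fold change 0.72 in EHF IKO and 0.92 in Control-TMX, each against Control-OIL). The 12 endothelial markers summed to 15.2 to 26.2, 21.7 to 30.65 and 18.8 to 33.7 CPM, with 5 tested and none called. In both lists the lowest EHF IKO sum lay above the lowest Control-OIL sum and below the lowest Control-TMX sum, and against Control-TMX 3 smooth muscle markers were higher and 8 lower in EHF IKO (median -0.15). The 2 with the smallest p against the mean of both controls were Smtn (0.22 ± 0.09) and Cspg4 (0.62 ± 0.36) for muscle, Pecam1 (0.66 ± 0.27) and Kdr (0.74 ± 0.42) for endothelium, all with edgeR adjusted p of 0.340 or more. Their part in the collagen results was not tested beyond the covariate fits.

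Enteric glia and neuron markers (12, of which 3 tested) summed to 7.97 to 12.1, 10.85 to 14.5 and 5.37 to 16.0 CPM with none called, and Ret, a receptor of enteric neurons, had -0.85 ± 0.25 and Snap25 -0.40 ± 0.28, each relative to the 2 controls' mean (edgeR, adjusted p = 0.113 and 0.674). Immune markers (8 of 12 tested, none called) summed to 86.5 to 141, 93.5 to 111 and 96.2 to 119 CPM, with Jchain at 0.76 ± 0.30 and Csf1r at 0.48 ± 0.20 (adjusted p = 0.317 and 0.354). Of 10 epithelial markers, 9 were higher and 1 lower against Control-OIL (median log2 fold change 0.25), and all 10 were higher against Control-TMX (median 0.14). Krt20, a keratin of mature surface cells, rose by 0.71 ± 0.17 against Control-OIL (edgeR adjusted p = 0.0438). That call was lost in 11 of the 12 fits that left out a library (all but EHF IKO 4, up to 0.161 without EHF IKO 3). Krt20 and Krt18 had 0.49 ± 0.14 and 0.35 ± 0.13 against the mean of both controls, neither called.

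Genes that make, bind and break down collagen showed few calls. Of 22 tested genes of collagen biosynthesis, secretion and cross-linking, none was called in any comparison. Against Control-OIL 15 were higher and 7 lower (median 0.12). At an unadjusted p under 0.05 (edgeR), 3 were higher and 0 lower, where 1078 and 798 of all 15743 genes were. Against Control-TMX 9 were higher and 13 lower (median -0.03), and so it was against the mean of both controls (median -0.03). Serpinh1, the collagen chaperone HSP47, averaged 5.04 ± 0.509, 6.67 ± 2.08 and 8.47 ± 2.55 CPM, and P4ha2, a prolyl hydroxylase subunit, 3.28 ± 0.702, 3.57 ± 0.352 and 2.36 ± 0.760. Of 7 tested genes of collagen degradation and its inhibitors none was called. Fap, a protease of activated fibroblasts, averaged 3.67 ± 1.39, 3.82 ± 0.805 and 6.44 ± 1.27 CPM, and Timp4, a metalloproteinase inhibitor, 2.94 ± 1.82, 3.74 ± 0.886 and 1.48 ± 0.816.

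Of 9 tested collagen receptors, Itga1, the alpha-1 subunit of a collagen-binding integrin, was higher by 0.54 ± 0.12 than the mean of the 2 control groups (edgeR, adjusted p = 0.0316, called), with 19.4 ± 2.69, 19.8 ± 3.20 and 28.6 ± 3.42 CPM. The call was lost in 9 of the 12 fits that left out a library, with an adjusted p of up to 0.104 without EHF IKO 2. Adgrg1, an adhesion receptor for type III collagen in the brain of mice, had -0.27 ± 0.10 (adjusted p = 0.263). Of 19 tested partners of collagen in basement membranes and hemidesmosomes, 2 rose against Control-OIL. Nid1, which links laminin to type IV collagen, went from 4.39 ± 0.306 to 8.86 ± 1.90 CPM (1.01 ± 0.18, adjusted p = 0.0112), with 7.96 ± 0.791 in Control-TMX, and its adjusted p was 0.0502 without EHF IKO 3. Lamc1, a laminin chain, rose by 0.65 ± 0.13 (adjusted p = 0.0190), a call lost without Control-OIL 3, Control-OIL 4, EHF IKO 1 or EHF IKO 3 (adjusted p = 0.0613, 0.0532, 0.0603 and 0.0704). Lamb1, a further laminin chain, had 0.88 ± 0.23 against the mean of both controls (adjusted p = 0.0709). With the stromal score as a covariate neither Nid1 nor Lamc1 was called against Control-OIL (edgeR adjusted p = 0.483 and 0.382). That fit called 14 of 15743 genes higher in this comparison.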

How the data were processed

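Counts per gene from the 12 libraries were used as deposited, with 1 mouse per library. Per the file headers, the authors counted reads over exons of Ensembl GRCm38 release 98 with featureCounts (Subread 1.6.1), and the alignment tool named in the submitters' processing notes is STAR, with no version given in the sources used here. Counting was unstranded, and overlapping genes share at most 6.07% of a collagen's exonic bases. Groups came from the labels. Nothing states whether libraries were processed in batches.

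Counts were analysed in R 4.3.3 with edgeR 4.0.16. TMM factors, filterByExpr by group and a single quasi-likelihood fit (legacy and robust) of all 12 libraries with 9 residual degrees of freedom gave 4 contrasts over 15743 genes, adjusted by Benjamini-Hochberg and called under 0.05. The common biological coefficient of variation was 18.3%. Slopes used the group and the stromal score in the same kind of fit, with log2 CPM at a prior count of 2. Scripts were tested on simulated data. Alternatives were DESeq2 1.42.0, limma-voom (limma 3.58.1), DESeq2 size factors, other filters, no robust setting, the compared groups alone, the replicate number as a block, marker scores as covariates and leaving out each library. The endothelial score and the Xist class (over 1000 counts or not) were added after seeing the data. Named genes were Col8a1, every called collagen, the 12 highest per length, the highest of each class, partner chains, and from each marker or pathway list the called members and the 2 with the smallest p against the mean of both controls. The members and lists were chosen with earlier results of these data known. Lengths are unions of annotated exons, so levels per kilobase are approximate.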

Additional observations from a re-analysis of the deposited data

Results flagged for a closer look

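In 9 of 105 sets (35 collagens in 3 groups of 4 mice), a single library lay far from the other 3, by a rule that chance alone meets in about 1 of 20 groups. In Control-TMX, replicate 2 was lowest for Col6a1 (30.0 CPM, the nearest other at 47.8) and highest for Col10a1 (6.55, nearest 4.82). Control-TMX 1 was highest for Col25a1 (2.80, nearest 1.17), Control-TMX 3 for Col12a1 (6.36, nearest 5.24) and Control-TMX 4 for Col4a5 (4.49, nearest 2.84). In Control-OIL, replicate 4 was highest for Col20a1 (11.2, nearest 6.53) and Col4a6 (2.96, nearest 1.66), and replicate 1 was lowest for Col4a5 (1.12, nearest 2.96). EHF IKO 3 was highest for Col18a1 (12.9, nearest 7.80). None of these is a gene called in a comparison.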

How the results depend on the processing

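Col8a1 fell in every alternative against Control-OIL and the mean of both controls. Against Control-OIL, the number of collagens called higher (7) became 13 with no filter on low counts, 11 with DESeq2 and 3 in the fit of the compared groups alone. It was 0 with the stromal score, 3 with the smooth muscle score and 2 to 11 when a library was left out. It was 2 without Control-OIL 4, EHF IKO 1 or EHF IKO 3, and 11 without EHF IKO 2. Over all genes, the number higher (145 of 15743) became 435 of 41205 with no filter, 316 with DESeq2 and 56 of 15129 for the compared groups alone. It was 14 with the stromal score and 61 with the smooth muscle score. Without Control-OIL 4, EHF IKO 1, EHF IKO 3 and EHF IKO 2 in turn it was 63, 54, 53 and 70, and without EHF IKO 4 it was 453. Against Control-TMX, the number of collagens higher (0) became 1 with no filter and 0 to 1 when a library was left out (Col4a1, without EHF IKO 2). The number lower (1) was 0 to 1. Over all genes, the number higher (52) became 198 of 41205 with no filter and 30 without EHF IKO 2. Against the mean of both controls, the number of collagens higher (3) became 9 with no filter and 7 with DESeq2. It was 0 with the stromal score and 5 with the endothelial score. When a library was left out it was 0 to 7 (0 without EHF IKO 1 or EHF IKO 3, 7 without EHF IKO 2). Over all genes, the number higher (0.858% of 15743) became 525 of 41205 with no filter and 251 with DESeq2. It was 42 with the stromal score and 279 with the endothelial score. Without EHF IKO 1, EHF IKO 3 and EHF IKO 2 in turn it was 65, 55 and 69. Between the controls, the number of collagens higher (0) became 3 with no filter and 1 with DESeq2, while over all genes it went from 6 to 270 and 121. The cause was not tested. Directions turned for 5 uncalled log2 fold changes. When a library was left out, Col6a1 ran from -9.5e-05 to 0.43, Col6a3 from -0.019 to 0.47 and Col8a2 from -0.0099 to 0.36 against Control-TMX (lowest without EHF IKO 3), and Col20a1 from -0.29 to 0.082 against Control-OIL (highest without Control-OIL 4). With the stromal score, Col16a1 was at 0.069 against Control-OIL. DESeq2 size factors left all collagen counts as they were, and the Xist class gave 6 higher against Control-OIL and 3 against the mean. Over all genes the Xist class gave 174 and 133 higher in these comparisons.

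Replicate numbers were not taken to pair the libraries. Same-numbered libraries of 2 groups correlated at -0.406 to 0.405 in their deviations from the group means. The pairs of Control-TMX and EHF IKO were at 0.219, 0.110, 0.0999 and 0.405, and in all groups replicates 1 and 2 shared the high Xist class. With the replicate number as a block, 9 collagens were higher and 1 lower against Control-OIL, and 3 and 1 against the mean of both controls. Against Control-TMX the numbers were 0 and 0 (Col8a1 at an edgeR adjusted p of 0.0625). Over all genes the block gave 92 higher and 81 lower against Control-OIL, 77 and 71 against the mean, and 32 and 40 against Control-TMX.

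Groups of 4 mice and 6 to 22 Col8a2 counts per library limit the precision. The 9 untested collagens held too few counts for a test.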
